A study of Mus musculus with 15 samples.

Results

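The comparison set livers that carried LbNOX and received ethanol (LbNOX_EtOH, libraries M13 to M15) against control livers that carried luciferase and received water (Luc_H2O, libraries M1 to M5). It used 8 of the 15 RNA-seq libraries of the study and the 13570 of 16330 listed genes that had a normalized count of 10 or more in at least 3 libraries. The question was how near LbNOX livers given ethanol came to control livers, and which genes stayed apart. The tissue was mouse liver, collected 6 h after a gavage of ethanol or water. Luciferase, a light-emitting enzyme, was the control construct, and LbNOX is an NADH oxidase of Lactobacillus brevis. The other libraries, used here for scale, were Luc_EtOH (luciferase and ethanol, M10 to M12) and LbNOX_H2O (LbNOX and water, M6 to M9). Every group thus carried a construct and had a gavage. The series description mentions ChREBP mice next to wild-type ones, while the sample labels give luciferase or LbNOX as genotype, so whether any animals had altered ChREBP is not settled here. Age, sex, the way the constructs were delivered and the cells that expressed them are not given in the sources used here. The labels do not say that libraries of a group came from separate animals, so p-values measure the spread between libraries, which may be technical.

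Liver cells burn ethanol in a pair of steps, by alcohol dehydrogenase and then aldehyde dehydrogenase, and each step reduces NAD+ to NADH. LbNOX uses oxygen to turn NADH back into NAD+, which makes it a tool to lower the NADH to NAD+ ratio of a cell. ChREBP, encoded by Mlxipl, is a transcription factor that senses sugar phosphates and switches on genes of glycolysis, fructose use and fat synthesis in liver.

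Recovered depth was 10.6 to 15.7 M reads per library in LbNOX_EtOH and 14.5 to 23.7 M in Luc_H2O. Hepatocyte markers were high in all libraries, with 11 of the 12 on the list present and a summed level of 706021 to 863912 normalized counts in LbNOX_EtOH and 806707 to 1007260 in Luc_H2O. The control library M3 stood apart: its pancreas markers summed to 1605, against 58.1 to 634 in LbNOX_EtOH and 72.0 to 219 in the other Luc_H2O libraries, and it was the lowest control in the lists of ChREBP targets, lipogenesis, glycolysis and oxidative phosphorylation. The water-treated LbNOX library M8 had a pancreas sum of 11010. List medians that M3 moves are given with and without it.

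As a whole, the LbNOX_EtOH livers lay about as far from the control livers as the control livers lay from each other. The distance of a library was the median over genes of its absolute log2 difference to the mean of the Luc_H2O libraries, leaving a control library out of its own mean. It was 0.285, 0.223 and 0.325 in M13, M14 and M15, against 0.206, 0.197, 0.353, 0.292 and 0.304 in M1 to M5. The LbNOX_EtOH values fell inside the range of the controls. So did the Luc_EtOH libraries, at 0.340, 0.291 and 0.280 in M10 to M12. This distance thus did not part ethanol livers from controls, although 1052 genes (7.75%) differed between Luc_EtOH and Luc_H2O (limma, adjusted p below 0.05). Lying inside the range therefore does not by itself show a return to control. The means were 0.278 ± 0.052 in LbNOX_EtOH (SD, n = 3) and 0.270 ± 0.067 in Luc_H2O (SD, n = 5), a difference of 0.0073 (exact two-sided permutation test over libraries, p = 0.875, where the smallest p possible is 0.0179). A p of this size does not show that the distances were equal. Luc_EtOH livers had a mean distance of 0.304 ± 0.032 (SD, n = 3), and LbNOX_EtOH differed from them by -0.03 (exact permutation p = 0.5, smallest possible 0.1). With 3 libraries against 3 this test cannot reach 0.05. Without M3 the difference to Luc_H2O was 0.0471 (exact permutation p = 0.343).

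**Figure D1:**
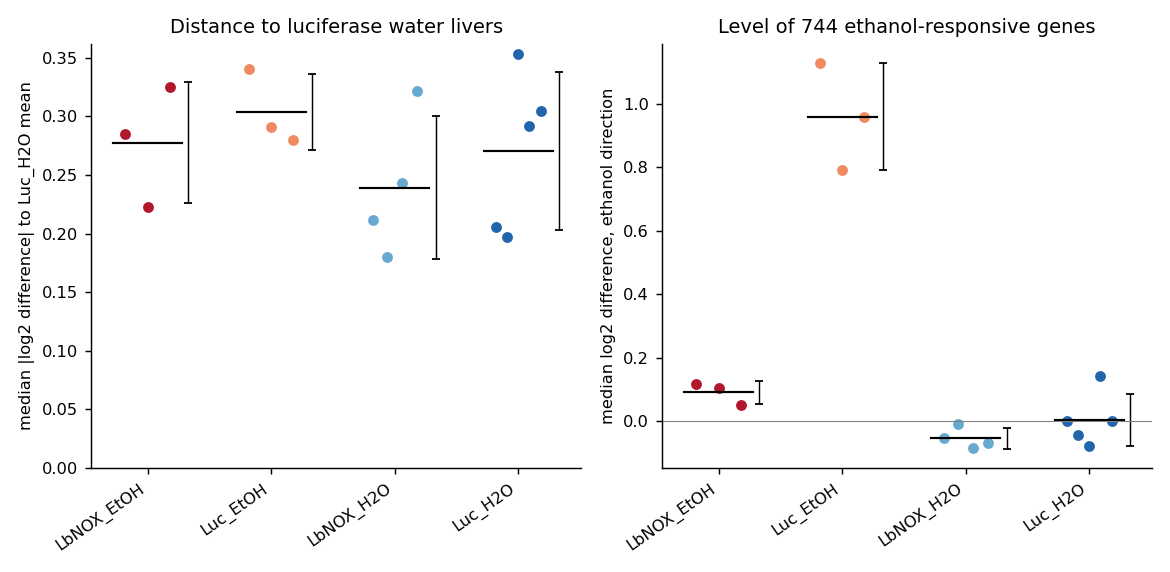
Left, the median absolute log2 difference of each library to the mean of the Luc_H2O libraries. Right, the median log2 difference of 744 ethanol-responsive genes, signed so that a positive value lies in the direction of ethanol. Points are libraries, horizontal lines group means and vertical bars the SD; the LbNOX_EtOH libraries sit at 0.050 to 0.117 on the right and Luc_EtOH, which helped to choose these genes, at 0.79 to 1.13.

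Most single genes were measured closely enough to place them within 2-fold of control. The log2 fold change of LbNOX_EtOH over Luc_H2O had a median of 0.00029 over all genes and a median size of 0.22. For 9059 genes (66.8% of those tested) the 95% confidence interval of the fold change lay within 2-fold in both directions. For the other genes a difference of 2-fold could not be set aside at this number of libraries. The share with an interval within 2-fold was also 62.8% between Luc_EtOH and Luc_H2O livers, where 1052 genes (7.75%) were called. Such an interval therefore does not by itself show a return to control.

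Genes that respond to ethanol lay near the control level. A panel of them was taken from libraries on neither side of the comparison: 744 genes differed between Luc_EtOH and LbNOX_H2O livers, 475 of them higher in Luc_EtOH (3.50% of genes tested) and 269 lower (1.98%). The panel mixes gavage and construct, since the libraries that chose it differ in both. Its median log2 difference to control, signed in the direction of ethanol, was 0.12, 0.10 and 0.050 in M13, M14 and M15, against -0.0011, -0.045, -0.078, 0.14 and -0.00099 in M1 to M5. All 3 LbNOX_EtOH libraries were on the ethanol side of 0, above 4 of the 5 control libraries and below M4. The mean over the LbNOX_EtOH libraries was 0.090 ± 0.036 (SD, n = 3).

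The 475 panel genes that were higher in Luc_EtOH had a median log2 fold change of 0.09 in LbNOX_EtOH over Luc_H2O livers, against 1.10 between the groups that chose them. The 269 that were lower had -0.06, against -0.85. On the gene level 450 of the 744 (60.5%) lay on the ethanol side of the controls, while 53.2% of all genes tested fell on the same side in both comparisons. The 95% interval lay within 2-fold for 554 panel genes (74.5%). The comparison of LbNOX_EtOH with Luc_EtOH livers, used for scale, shares the LbNOX_EtOH libraries with the one described here and the Luc_EtOH libraries with the choice of the panel. It had 304 genes higher (2.24%) and 518 lower (3.82%).

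Of the 18 genes fixed for description, which are enzymes of ethanol use, ChREBP targets and ethanol-responsive genes, only Tarsl2, described further on, passed the test against control. G6pc, which encodes the glucose-6-phosphatase that frees glucose from the hepatocyte (chromosome 11, 101367561 to 101377903, GRCm38), had 3859, 6436 and 2930 normalized counts in LbNOX_EtOH, against 3287, 4455, 1030, 3746 and 4605 in Luc_H2O. The groups overlapped, and M3 was the lowest control. In Luc_EtOH livers G6pc averaged 37891 ± 15043 normalized counts (SD, n = 3). The log2 fold change was 0.46 ± 0.46 (SE) against Luc_H2O (limma, adjusted p = 0.70) and -3.11 ± 0.52 against Luc_EtOH (limma, adjusted p = 0.0036). Its interval against control, -0.53 to 1.45, does not set aside a 2-fold higher level.

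Acly, the ATP citrate lyase that supplies acetyl-CoA for fat synthesis, lay close to control with a narrow interval. It had 4078, 4832 and 2827 normalized counts in LbNOX_EtOH, against 3297, 3773, 3020, 3820 and 3882 in Luc_H2O, with M15 below and M13 and M14 above every control. Its log2 fold change was 0.11 (95% interval -0.36 to 0.58) against Luc_H2O and -2.59 against Luc_EtOH (limma, adjusted p = 9.6e-05), where it averaged 24197 ± 9275 normalized counts (SD, n = 3). Pklr, liver pyruvate kinase, had 2672, 2990 and 2016 normalized counts in LbNOX_EtOH, against 2569, 2861, 1136, 5212 and 3190 in Luc_H2O. The LbNOX_EtOH values lay inside the range of the controls, with a log2 fold change of -0.09 (-0.96 to 0.79). Fasn, the fatty acid synthase, had a log2 fold change of 0.13 (-0.79 to 1.05), and Gpd1, the cytosolic enzyme that hands electrons of NADH to glycerol phosphate, 0.12 (-0.40 to 0.63).

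Ttc25, a gene of cilia assembly, kept a small distance from control that did not pass the test. It had 107, 111 and 60.5 normalized counts in LbNOX_EtOH, against 43.2, 60.0, 44.0, 62.2 and 78.0 in Luc_H2O, so M13 and M14 lay above every control and M15 among them. Luc_EtOH livers averaged 1333 ± 125 normalized counts (SD, n = 3). The log2 fold change was 0.67 ± 0.27 (SE; limma, adjusted p = 0.27) against Luc_H2O and -3.88 ± 0.30 against Luc_EtOH (limma, adjusted p = 3.4e-05). Cyp7a1, whose enzyme sets the pace at which cholesterol becomes bile acid, averaged 3092 ± 984 normalized counts in LbNOX_EtOH (SD, n = 3), 442 ± 151 in Luc_EtOH (SD, n = 3) and 2241 ± 833 in Luc_H2O (SD, n = 5). Cyp7a1 had a log2 fold change of 2.82 for LbNOX_EtOH over Luc_EtOH (limma, adjusted p = 0.00063) and 0.50 over Luc_H2O (adjusted p = 0.51). Cxcl10, an interferon-induced chemokine, had -0.42 over Luc_H2O (95% interval -1.28 to 0.44) and 2.08 over Luc_EtOH (limma, adjusted p = 0.016).

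**Figure D2:**
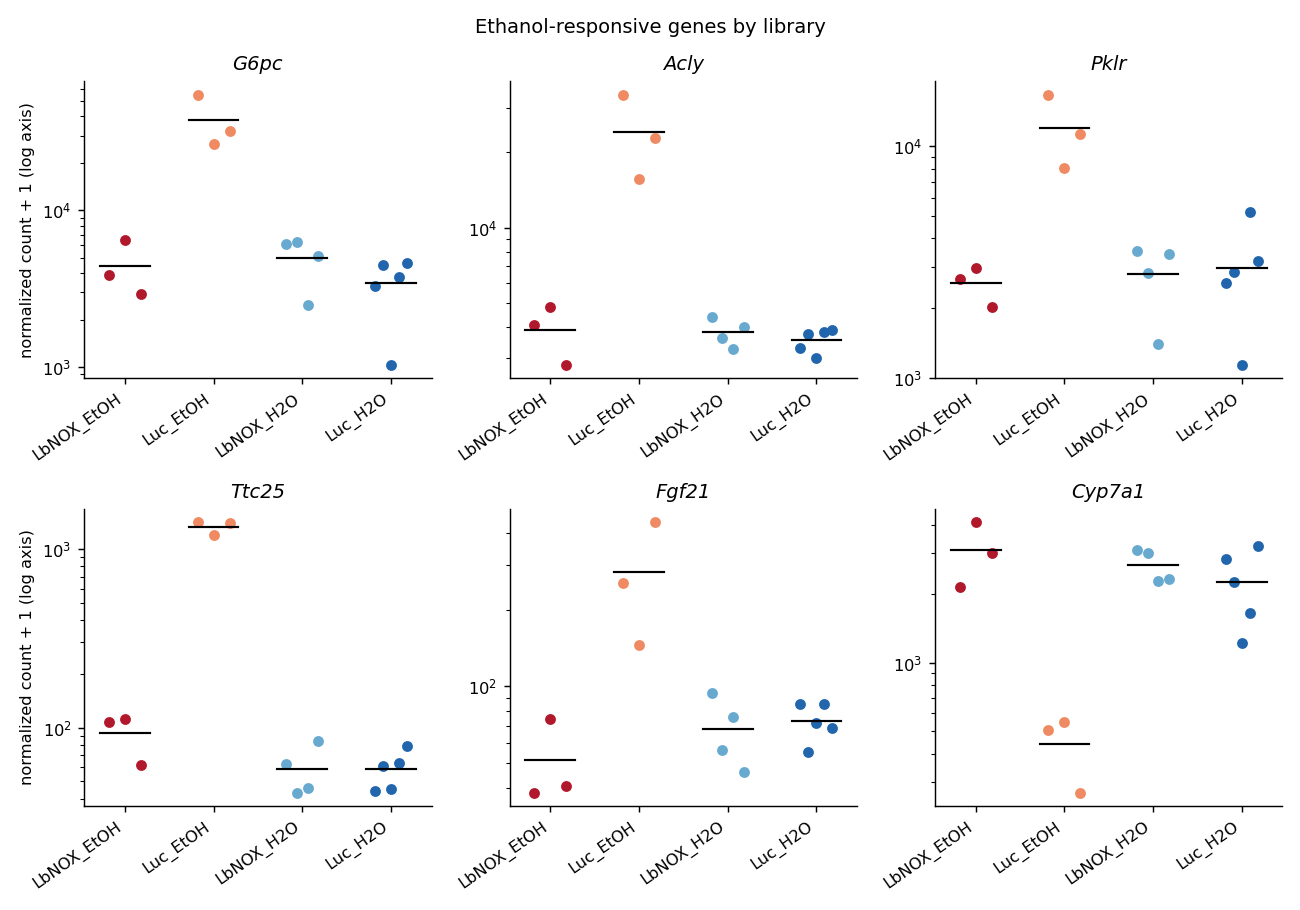
Normalized count plus 1 on a log axis for 6 genes in every library of the 4 groups; horizontal lines are arithmetic means. For G6pc, Acly, Pklr, Ttc25 and Fgf21 the Luc_EtOH libraries lie above the Luc_H2O libraries and for Cyp7a1 below them, while LbNOX_EtOH lies beside or within Luc_H2O.

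ChREBP target genes had a median near control and wide intervals. Of the 18 on the list 17 were tested; none passed the test in either direction and none reached an unadjusted p below 0.05, against 14.3% of all genes tested. Their median log2 fold change was -0.07, with a range of -0.83 to 0.52, and 9 of the 17 had an interval within 2-fold, against 66.8% of all genes. Between LbNOX_EtOH and Luc_EtOH livers the same list had a median of -2.10, with 16 of 17 called lower, against 3.82% of all genes. The members of smallest p were Elovl6, a fatty acid elongase, at 0.52 (-0.04 to 1.09), Pnpla3, a lipid droplet hydrolase, at -0.83, and Arrdc4, an arrestin-family regulator of glucose uptake, at -0.46. Pnpla3 was near the floor in Luc_H2O, at 12.9 normalized counts in M4 and 4.00 to 6.36 in the others. Its fold, the lowest of the list, is therefore uncertain. Mlxipl itself had 2761, 3528 and 1665 normalized counts in LbNOX_EtOH, against 1720, 2071, 1484, 2352 and 3370 in Luc_H2O, with M14 the highest and the groups overlapping. Fgf21, a hormone secreted by the liver, had 37.4, 73.8 and 39.9 normalized counts in LbNOX_EtOH, against 84.5, 54.5, 70.6, 84.4 and 68.0 in Luc_H2O. Here M13 and M15 were below every control. Its log2 fold change was -0.57 (-1.30 to 0.16). The level of the whole list was -0.01, 0.33 and -0.47 in M13 to M15 and -0.08, 0.12, -0.73, 0.30 and 0.38 in M1 to M5, so M3 was the lowest and the groups overlapped. The median was -0.28 without M3 and 0.18 without M15.

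The E-box CACGTG is the core of the element that ChREBP binds. Of 14 tested ChREBP targets with a RefSeq promoter, 4 (28.6%) held it in the 250 bases before the start, against 6.86% of 27025 promoters. It reads the same on both strands, and none of the 14 promoters held the interferon-type motif described further on. The windows of 3 of them, upstream of the RefSeq start (GRCm38.p6, 5′ to 3′ on the strand of the gene), are shown for the genes described above, with the E-box in capitals. They are Mlxipl at chr5:135089745-135089844 on the plus strand, Fgf21 at chr7:45615491-45615590 on the minus strand and Arrdc4 at chr7:68749379-68749478 on the minus strand.
Mlxipl: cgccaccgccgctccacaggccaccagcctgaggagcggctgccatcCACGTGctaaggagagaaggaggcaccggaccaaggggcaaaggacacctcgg
Fgf21: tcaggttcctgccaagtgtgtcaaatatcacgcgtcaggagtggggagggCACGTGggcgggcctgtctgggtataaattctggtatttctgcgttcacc
Arrdc4: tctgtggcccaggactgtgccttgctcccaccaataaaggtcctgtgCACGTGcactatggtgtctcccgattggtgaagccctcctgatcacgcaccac
The remaining match was in Khk, ketohexokinase. The E-box was as common in the clock genes described further on, at 4 of 14 promoters (28.6%). Among genes called lower against control it was held by 5 of 32 (15.6%), and among those called higher by 0 of 14. A match is a description of these letters and not a shown binding site.

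Genes that handle ethanol itself were near control in both groups given ethanol. Of 14 tested members of the list of ethanol and acetate metabolism, none reached an unadjusted p below 0.05, the median log2 fold change was -0.0029, and 12 had an interval within 2-fold. Without M3 the median was -0.15. Between Luc_EtOH and Luc_H2O livers the list had a median of -0.13, and between LbNOX_EtOH and Luc_EtOH livers 0.11 with none called. The list thus moved little with ethanol in luciferase livers, so its place near control does not show a return. Adh1, the main liver alcohol dehydrogenase, averaged 23465 ± 2607 normalized counts in LbNOX_EtOH (SD, n = 3) and 27532 ± 6297 in Luc_H2O (SD, n = 5), a log2 fold change of -0.21 (-0.65 to 0.24). Aldh2, the mitochondrial aldehyde dehydrogenase, had 0.02 (-0.36 to 0.39), and Acss2, which activates acetate, 0.05 (-0.32 to 0.42). Cyp2e1, the ethanol-oxidizing cytochrome, had a wider interval (-0.88 to 0.99), since it ranged from 11780 in M3 to 64870 in M5 within the controls. Ldha, lactate dehydrogenase A, had -0.15 (-0.49 to 0.19), and Txnip, a sugar-induced inhibitor of thioredoxin, -0.11 (-0.69 to 0.47).

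Lipogenesis and triglyceride synthesis had a median log2 fold change of 0.06 over 21 tested genes, with none called. Without M3 the median was -0.095. Against Luc_EtOH, 1 was called higher and 11 lower, where 2.24% and 3.82% of all genes were. Against control, 2 had an unadjusted p below 0.05 with a positive and 3 with a negative fold, against 7.22% and 7.11% of all genes. Fads2 and Fads1, the desaturases of polyunsaturated fatty acids, had -0.77 and -0.44, with no overlap between the groups (limma, adjusted p = 0.092 and 0.255). Dgat1, which makes triglyceride, had 0.42. Plin2, the main lipid droplet coat protein of hepatocytes, had 9560, 8911 and 9127 normalized counts in LbNOX_EtOH, against 15407, 12527, 12690, 14179 and 10958 in Luc_H2O. Every LbNOX_EtOH library lay below every control, with a log2 fold change of -0.51 (limma, adjusted p = 0.13). Plin3, another coat protein, had 0.42.

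A small set of genes stayed apart. With an adjusted p below 0.05, 59 genes (0.435% of 13570) differed between LbNOX_EtOH and Luc_H2O livers, 19 higher (0.140%) and 40 lower (0.295%). Adjusted p-values ran from 0.029 to 0.049, so all lay near the threshold. The log2 fold changes had a median size of 0.75 and a range of 0.43 to 3.53, and only 12 of the 59 exceeded 1. In none of the 59 did the groups overlap; over all genes the groups did not overlap in 4.76% (LbNOX_EtOH higher) and 4.00% (lower). On the reads recovered from the table, edgeR called 53 genes, of which 51 were among the 59. DESeq2 called 265 higher (2.08% of 12745) and 300 lower (2.35%), which included all 59. Leaving out M3 and M8, 180 genes were called (1.33%), again with all 59.

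The count rested on single libraries. No gene was called by limma when M13 or M1 was left out, although 1359 and 1769 genes still had an unadjusted p below 0.05, and no gene was called when only the 2 groups were fitted (1611 with an unadjusted p below 0.05). The count was 5 without M15, 37 without M14, 7 without M2, 36 without M3, 19 without M5 and 94 without M4. No called gene changed direction in any of these fits.

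**Figure D3:**
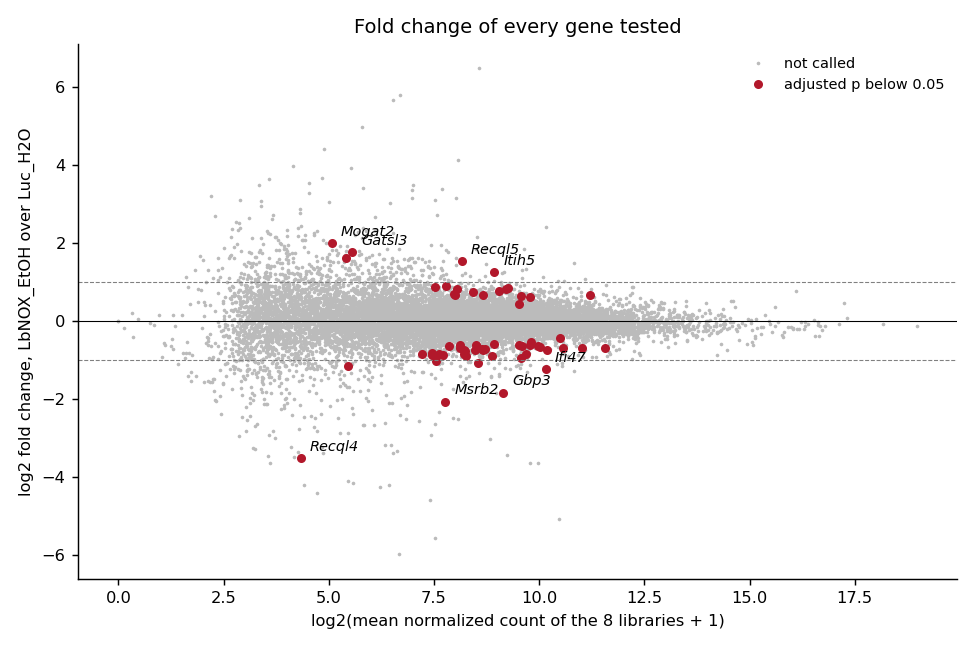
Log2 fold change of LbNOX_EtOH over Luc_H2O for each gene tested, by log2 of its mean normalized count over the 8 libraries plus 1. Red points are the 59 called genes, dashed lines mark 2-fold; most called genes lie within 2-fold of control, and many uncalled genes of low count lie further out.

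Among the genes that rose, Mogat2 had the largest fold. It encodes a monoacylglycerol acyltransferase, which makes diacylglycerol on the way to triglyceride (chromosome 7, 99219084 to 99238619, minus strand, GRCm38). It had 58.1, 61.0 and 65.3 normalized counts in LbNOX_EtOH, against 21.0, 19.1, 9.97, 10.6 and 16 in Luc_H2O. The lowest LbNOX_EtOH library was well above the highest control. Mogat2 thus had a log2 fold change of 1.99 ± 0.30 (SE; limma, adjusted p = 0.029). In Luc_EtOH livers Mogat2 averaged 129 ± 35.5 normalized counts (SD, n = 3), and LbNOX_EtOH over Luc_EtOH had -1.02 (adjusted p = 0.086).

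Itih5 stood apart from both luciferase groups. It encodes a secreted heavy chain of the inter-alpha-trypsin inhibitor family, which binds hyaluronan in the matrix (chromosome 2, 10153571 to 10256529, plus strand). It had 793, 610 and 891 normalized counts in LbNOX_EtOH, against 316, 337, 420, 273 and 263 in Luc_H2O, with M3 the highest control. The log2 fold change of Itih5 was 1.25 ± 0.19 (SE; limma, adjusted p = 0.029) over Luc_H2O and 1.47 ± 0.21 over Luc_EtOH (limma, adjusted p = 0.0012). The Luc_EtOH mean was 275 ± 43.0 normalized counts (SD, n = 3), close to the control mean of 322 ± 62.6 (SD, n = 5). Dscr3, now Vps26c, a subunit of the retriever complex that recycles membrane cargo, had a like pattern: 812 ± 121 normalized counts in LbNOX_EtOH (SD, n = 3), 370 ± 35.1 in Luc_EtOH (SD, n = 3) and 465 ± 61.5 in Luc_H2O (SD, n = 5). Dscr3 had a log2 fold change of 0.80 over Luc_H2O (adjusted p = 0.030) and 1.12 over Luc_EtOH (limma, adjusted p = 0.00079). Oaz2, an antizyme that holds down polyamine synthesis, and Slc35e2, of the nucleotide-sugar transporter family, had 0.62 and 0.67 over Luc_H2O, and 0.77 and 0.77 over Luc_EtOH.

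Gatsl3, now Castor1, the arginine sensor that acts on mTORC1, had 85.8, 77.7 and 84.6 normalized counts in LbNOX_EtOH, against 30.6, 22.7, 25.8, 28.1 and 15 in Luc_H2O. The log2 fold change was 1.75 ± 0.25 (SE; limma, adjusted p = 0.029), with Luc_EtOH at 44.2 ± 4.21 normalized counts (SD, n = 3), between the other groups. A neighbouring pair on chromosome 17 rose together: Pigf, of glycosylphosphatidylinositol anchor synthesis, with 0.88 and Rhoq, a small GTPase, with 0.85. Rhoq had 836, 843 and 842 normalized counts in LbNOX_EtOH, against 484, 593, 498, 360 and 431 in Luc_H2O. These genes overlap (Pigf 86997256 to 87025406 on the minus strand, Rhoq 86963082 to 87000069 on the plus strand), and the counting is not stated to use strand, so part of their reads may be shared. Recql5, a RecQ DNA helicase, had 465, 437 and 548 normalized counts in LbNOX_EtOH, against 216, 139, 161, 151 and 168 in Luc_H2O, a log2 fold change of 1.54. Its span overlaps 4 other protein-coding genes, so its level is uncertain. In all, 15 of the 59 called genes overlap another protein-coding gene.

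The other genes that rose had log2 fold changes of 0.43 to 1.61. They included Acot6, an acyl-CoA thioesterase, Mfsd12, a lysosomal cysteine transporter, Hpcal1, a calcium sensor, Rab11fip3, a partner of the recycling GTPase Rab11, Myh14, a non-muscle myosin heavy chain, Dlg5, a membrane scaffold, Pbxip1, which binds PBX factors, and Antxr2, a receptor for collagen VI and anthrax toxin. Fam107a, an actin-associated protein, and Bri3bp completed them. Hpcal1 had 358, 323 and 316 normalized counts in LbNOX_EtOH, against 229, 213, 213, 191 and 202 in Luc_H2O. Luc_EtOH was higher still for Hpcal1, at 478 ± 38.7 (SD, n = 3; LbNOX_EtOH over Luc_EtOH -0.52, limma, adjusted p = 0.025).

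**Figure D4:**
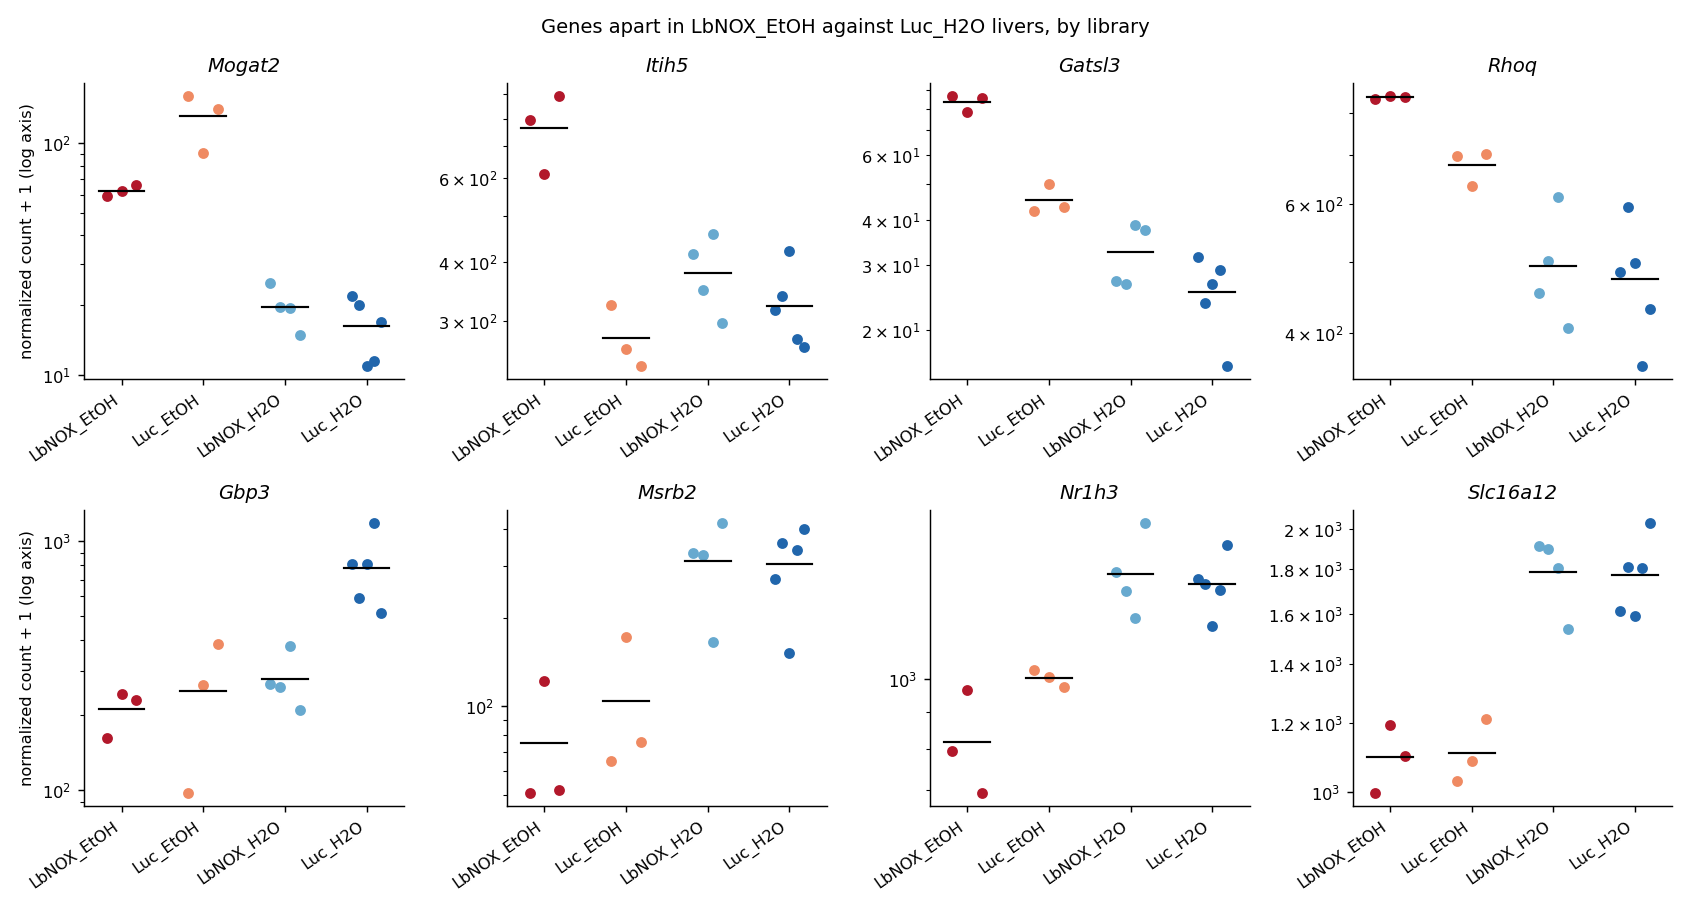
Normalized count plus 1 on a log axis for 8 called genes in each library of the 4 groups; horizontal lines are arithmetic means. Mogat2, Itih5, Gatsl3 and Rhoq are higher and Gbp3, Msrb2, Nr1h3 and Slc16a12 lower in every LbNOX_EtOH library than in any Luc_H2O library.

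Among the genes that fell and had a mean of 50 or more normalized counts, Msrb2 had the largest fold. It encodes a mitochondrial methionine sulfoxide reductase, which repairs oxidized methionine (chromosome 2, 19371440 to 19394976, plus strand). It had 49.8, 121 and 50.8 normalized counts in LbNOX_EtOH, against 270, 356, 150, 339 and 398 in Luc_H2O, with M3 the lowest control and M14 the highest LbNOX_EtOH library. The log2 fold change was -2.07 ± 0.42 (SE; limma, adjusted p = 0.045). Luc_EtOH livers were low too, at 103 ± 58.4 normalized counts (SD, n = 3). Recql4, a RecQ helicase, had 0, 0 and 13.3 normalized counts in LbNOX_EtOH, against 33, 43.6, 22.4, 19.9 and 22.0 in Luc_H2O. At such low values its log2 fold change of -3.53 depends on the pseudocount of 1, and edgeR gave an adjusted p of 0.16.

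Nr1h3, which encodes LXR alpha, the oxysterol receptor that turns on cholesterol export and fat synthesis genes (chromosome 2, 91184061 to 91202834, minus strand), fell. It had 794, 964 and 694 normalized counts in LbNOX_EtOH, against 1376, 1357, 1183, 1330 and 1537 in Luc_H2O. Its log2 fold change was -0.74 ± 0.13 (SE; limma, adjusted p = 0.0325), and Luc_EtOH lay between at 1002 ± 27.8 normalized counts (SD, n = 3). Hsd17b7, a reductase of cholesterol synthesis, had -0.71 (limma, adjusted p = 0.039). Slc16a12, a creatine transporter, had 996, 1193 and 1098 normalized counts in LbNOX_EtOH, against 1610, 1808, 1592, 1806 and 2033 in Luc_H2O, and its Luc_EtOH mean of 1108 ± 94.1 (SD, n = 3) was close to that of LbNOX_EtOH, 1096 ± 98.3 (SD, n = 3). Inhbc, a liver-secreted activin subunit, had 504, 520 and 391 normalized counts in LbNOX_EtOH, against 962, 803, 695, 1373 and 853 in Luc_H2O, a log2 fold change of -0.96 (adjusted p = 0.039).

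Aven, an inhibitor of apoptosis, had the smallest p of all genes. It had 126, 129 and 158 normalized counts in LbNOX_EtOH, against 272, 248, 228, 242 and 269 in Luc_H2O, a log2 fold change of -0.87 ± 0.12 (SE; limma, adjusted p = 0.029), and -0.79 against Luc_EtOH (adjusted p = 0.0036). Tarsl2, a threonyl-tRNA synthetase, had 209, 199 and 189 normalized counts in LbNOX_EtOH, against 375, 392, 322, 398 and 376 in Luc_H2O. Tarsl2 had a log2 fold change of -0.90 ± 0.14 (SE; limma, adjusted p = 0.029) over Luc_H2O and -0.69 over Luc_EtOH (limma, adjusted p = 0.023). Opa3, a mitochondrial protein, and Dis3l, a cytoplasmic exosome RNase, were also below both luciferase groups, at -0.65 and -0.77 over Luc_H2O and -0.69 and -0.88 over Luc_EtOH (limma, adjusted p = 0.0043 and 0.0084).

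The other genes that fell are given with their known roles and log2 fold changes. They include Nbn, of the MRN complex that senses DNA breaks (-0.74), Stag1, of cohesin (-0.86), Setd1b, a histone H3K4 methyltransferase (-0.74), Csrp2bp, now Kat14, of the ATAC acetyltransferase (-0.90), Chrac1, of a chromatin accessibility complex (-0.84), Ino80c, of the INO80 remodeller (-0.63), and Gpn1, a GTPase for nuclear import of RNA polymerase II (-0.84). Upf3a, of nonsense-mediated decay, had -0.84, Lsm6, of the U6 RNA ring, -0.72, and Prmt3, an arginine methyltransferase of ribosomal protein S2, -0.85. Knstrn and Pmf1, proteins of the kinetochore, had -1.07 and -0.68. Alg8, a glucosyltransferase of N-glycan synthesis, had -0.69, and Gmppa, which regulates GDP-mannose supply, had -0.75. The remainder had log2 fold changes of -0.44 to -1.16: Tmed1, Mfsd8, Ube2cbp, Azi2, Smyd5, Sephs1, Btd, Ppp3cb, Tspan4 and Dnajc22.

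Of the 59 called genes, 9 belonged to the ethanol panel, which is 15.3% of the called genes and 1.21% of the 744 panel genes. Over all genes tested, 5.48% were in the panel and 0.435% were called. Both sets came from the same fit with a shared estimate of the spread, so they were not chosen independently. All 9 lay on the ethanol side. Mogat2, Hpcal1, Pigf and Fam107a were higher, and Slc16a12, Msrb2, Ctdsp1, a phosphatase of the RNA polymerase tail, Iba57, an iron-sulfur cluster factor, and 2810459M11Rik were lower. Fam107a had 72.0, 57.0 and 84.6 normalized counts in LbNOX_EtOH and 71.6 ± 13.8 in Luc_EtOH (SD, n = 3), against 19.8, 30.9, 12.5, 28.1 and 26.0 in Luc_H2O. Ctdsp1 had 2168 ± 235 in LbNOX_EtOH (SD, n = 3), 2179 ± 209 in Luc_EtOH (SD, n = 3) and 3522 ± 489 in Luc_H2O (SD, n = 5). For Fam107a, Slc16a12 and Ctdsp1 the log2 difference between LbNOX_EtOH and Luc_EtOH was -0.01, -0.02 and -0.01.

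Genes of the interferon-gamma response mostly had lower values in LbNOX_EtOH livers. The list holds guanylate-binding proteins and immunity-related GTPases, which attack intracellular pathogens, and genes of antigen presentation. Of 24 genes 23 were tested; 22 had a negative log2 fold change, 14 an unadjusted p below 0.05 and 14 no overlap between the groups, and their median was -0.81. Over all genes 7.11% had such a p with a negative fold and 4.00% lay lower without overlap. Gbp3 was the member that passed the adjusted test, and DESeq2 called 7 lower, against 2.35% of all genes. Because bulk liver was sequenced, fewer cells of a type and less RNA per cell cannot be told apart here. The list's level was -1.0, -0.83 and -0.64 in M13 to M15, against 0.13, -0.02, 0.55, -0.41 and -0.24 in M1 to M5. No LbNOX_EtOH library reached a control. Without M3 the median was -0.60.

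Gbp3 (chromosome 3, 142560026 to 142573209, plus strand) had 161, 243 and 230 normalized counts in LbNOX_EtOH, against 806, 592, 806, 1181 and 514 in Luc_H2O, a log2 fold change of -1.84 ± 0.37 (SE; limma, adjusted p = 0.045). Ifi47, an immunity-related GTPase outside the list, fell as well, with 592, 589 and 632 normalized counts in LbNOX_EtOH, against 1389, 1276, 2109, 1294 and 1210 in Luc_H2O, M3 being highest. Ifi47 had a log2 fold change of -1.24 ± 0.22 (SE; limma, adjusted p = 0.037). Ube2l6, the conjugating enzyme of the interferon-induced modifier ISG15, had -0.71 (limma, adjusted p = 0.039). Tap1, the peptide transporter of antigen presentation, had 964, 1102 and 990 normalized counts in LbNOX_EtOH, against 1796, 1977, 1784, 1556 and 1740 in Luc_H2O, with no overlap and an adjusted p of 0.055. Iigp1 had a log2 fold change of -0.88 (limma, adjusted p = 0.057), Irgm1 -0.90 and Igtp -0.99, each below every control in every LbNOX_EtOH library.

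The list was also low in the other groups when set against the same Luc_H2O libraries, which those comparisons share: its median was -1.46 in Luc_EtOH and -0.89 in LbNOX_H2O. Between LbNOX_EtOH and LbNOX_H2O livers it was 0.12, in a comparison that shares the LbNOX_EtOH libraries. Gbp3 averaged 211 ± 44.3 normalized counts in LbNOX_EtOH (SD, n = 3), 249 ± 145 in Luc_EtOH (SD, n = 3), 278 ± 72.1 in LbNOX_H2O (SD, n = 4) and 780 ± 259 in Luc_H2O (SD, n = 5). The Luc_H2O mean was the highest of the 4. Markers of T and NK cells, which secrete interferon-gamma, summed to 130 to 296 normalized counts in LbNOX_EtOH and 145 to 490 in Luc_H2O, with all 12 present and the highest sum in M3. Macrophage markers summed to 1884 to 3191 in LbNOX_EtOH and 1810 to 4501 in Luc_H2O. Their part in the result was not tested.

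An interferon-type motif, GAAANNGAAA, was searched on both strands in the 250 bases before each start. It was held by 8 of the 16 list members with a RefSeq promoter (50%), against 3.46% of 27025 promoters. The windows of Gbp3, Igtp and Irgm1, which were low in every LbNOX_EtOH library, are shown with the matches in capitals (GRCm38.p6, 5′ to 3′ on the strand of the gene); overlapping matches run together. In Gbp3 the match is on the opposite strand. The windows are Gbp3 at chr3:142559944-142560043 on the plus strand, Igtp at chr11:58199456-58199555 on the plus strand and Irgm1 at chr11:48871421-48871520 on the minus strand.
Gbp3: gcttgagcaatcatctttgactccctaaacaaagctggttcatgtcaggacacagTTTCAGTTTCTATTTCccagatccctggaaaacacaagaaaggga
Igtp: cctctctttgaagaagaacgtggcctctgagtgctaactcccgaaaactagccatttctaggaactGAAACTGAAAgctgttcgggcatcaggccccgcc
Irgm1: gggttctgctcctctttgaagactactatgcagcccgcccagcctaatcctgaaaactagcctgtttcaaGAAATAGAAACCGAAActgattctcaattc
Among the 32 genes called lower that have a promoter, only Gbp3 and Ppp3cb held the motif, a share of 6.25%.

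Genes of the type I interferon response were below control as well, beside a wide spread among the controls. All 19 tested had a negative log2 fold change, with a median of -0.57, 5 had an unadjusted p below 0.05 and none passed the test. Irf7, a master regulator of interferon genes, had 637, 790 and 688 normalized counts in LbNOX_EtOH, against 1375, 1040, 1543, 4042 and 934 in Luc_H2O, with M4 far above the rest. Ifit3 and Ifit1, which bind viral RNA, had -1.31 and -1.41 with the same high library. Without M4 the median of the list was -0.36. The other groups were also low against the same Luc_H2O libraries, with a median of -1.16 in Luc_EtOH and -0.75 in LbNOX_H2O. Between LbNOX_EtOH and LbNOX_H2O livers the median was 0.19, so the low level was not particular to LbNOX_EtOH.

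Cell cycle genes had mostly lower values and p53 targets mostly higher ones, without a called gene in either list. Of 20 cell cycle genes, 16 had a negative log2 fold change and 9 an unadjusted p below 0.05; the median was -0.60, and DESeq2 called 7 lower. Over all genes these shares were 7.11% for such a p with a negative fold and 2.35% for DESeq2. Ccna2, cyclin A2, had 318, 364 and 590 normalized counts in LbNOX_EtOH, against 806, 980, 926, 602 and 817 in Luc_H2O, with M15 just below the lowest control (log2 fold change -0.99, limma, adjusted p = 0.057). Cdc20 and Plk1, which drive mitosis, had -1.10 and -0.99 and overlapped through M4. The level of the cell cycle list was -1.03, -0.76 and -0.30 in M13 to M15, against 0.26, 0.40, 0.22, -0.76 and -0.11 in M1 to M5. The groups thus overlapped through M4. Without M15 the median of the list was -0.93, and without M13 it was -0.44. Of 18 p53 targets, 15 were above 0 and 7 had an unadjusted p below 0.05, with a median of 0.30. Over all genes 7.22% had such a p with a positive fold. The level of the p53 list was 0.40, 0.07 and 0.37 in M13 to M15, against 0.03, 0.19, 0.33, -0.26 and -0.24 in M1 to M5. Here M14 lay among the controls. Ddit4, an inhibitor of mTORC1, had 850, 494 and 507 normalized counts in LbNOX_EtOH, against 348, 420, 280, 341 and 314 in Luc_H2O (log2 fold change 0.82, limma, adjusted p = 0.057). Polk, a DNA polymerase that bypasses damage, had 0.73 and Trp53inp1, a p53-induced nuclear protein, 0.72.

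**Figure D5:**
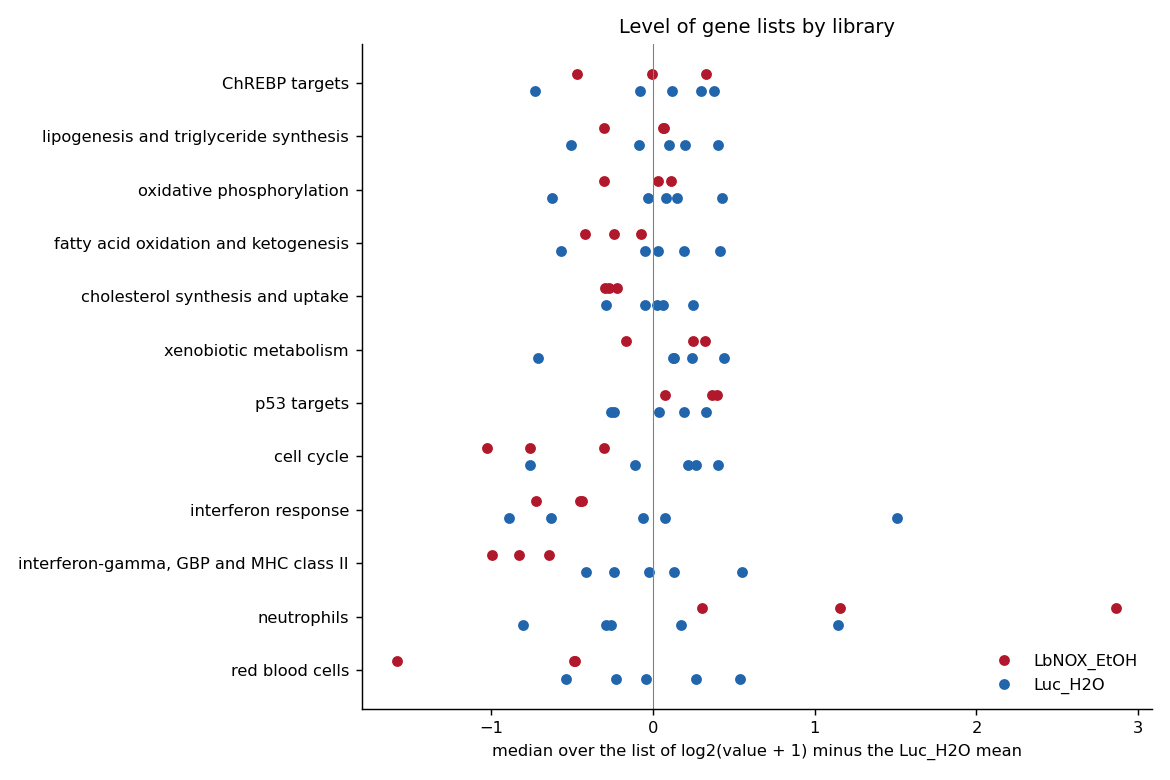
Level of 12 gene lists in each LbNOX_EtOH (red) and Luc_H2O (blue) library, as the median over the list of log2(value + 1) minus the Luc_H2O mean. The interferon-gamma list parts the groups; ChREBP targets and oxidative phosphorylation overlap, neutrophil markers are high in M13 and M3 is the low control in several metabolic lists.

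Blood cell markers had lower values for red cells and higher ones for neutrophils in LbNOX_EtOH. Hemoglobin and other red cell genes had a median log2 fold change of -0.80, with 5 of 6 tested at an unadjusted p below 0.05 and none called. Their level was -1.58, -0.49 and -0.48 in M13 to M15, against -0.04, 0.26, 0.54, -0.54 and -0.23 in M1 to M5. The control M4 thus lay below M14 and M15. Only 1 of the 6 genes was lower without overlap, against 4.00% of all genes. Without M13 the median was -0.45. All 7 on the list were present. Their sums, which weigh the most abundant genes most, were 4861 to 10899 normalized counts in LbNOX_EtOH and 11234 to 19060 in Luc_H2O, without overlap. Hbb-bt, Hbb-bs and Hba-a1, globin genes, had -0.94, -0.81 and -0.87; they share sequence with near-identical copies, so their single values are uncertain. Neutrophil markers had a median of 1.55 over 6 tested genes, with levels of 2.87, 0.30 and 1.16 in M13 to M15 and -0.29, -0.81, 1.15, -0.26 and 0.17 in M1 to M5. S100a9, an abundant neutrophil calcium-binding protein, had 227, 34.4 and 97.9 normalized counts in LbNOX_EtOH, against 19.2, 19.1, 59.0, 28.1 and 27.0 in Luc_H2O. The marker sum was 187 to 729 in LbNOX_EtOH and 116 to 261 in Luc_H2O, and without M13 the list's median was 0.81. The part of these cells in the called genes was not tested.

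Cholesterol synthesis and uptake genes had a median slightly below control, with overlap between the groups. Of 23 tested, 18 had a negative log2 fold change, 6 with an unadjusted p below 0.05, and the median was -0.26; 21 had an interval within 2-fold. Hsd17b7 was the called member. Insig1, a brake on sterol synthesis, had -0.58. Over all genes 7.11% had an unadjusted p below 0.05 with a negative fold. The level of the cholesterol list was -0.30, -0.27 and -0.22 in M13 to M15, against -0.29, -0.05, 0.25, 0.03 and 0.06 in M1 to M5. The control M1 thus lay among the LbNOX_EtOH libraries. The median of the list was -0.18 without M3.

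Fatty acid oxidation and ketogenesis had a median of -0.22 over 28 tested genes, 23 of them below 0 and 5 with an unadjusted p below 0.05, none called. Acot4, a peroxisomal acyl-CoA thioesterase, had 834, 978 and 634 normalized counts in LbNOX_EtOH, against 1642, 1272, 1306, 2380 and 2796 in Luc_H2O. All 3 libraries lay below every control (log2 fold change -1.15, limma, adjusted p = 0.057). Cpt1a, which admits fatty acids to mitochondria, had -0.67, also without overlap, and Acot3, another thioesterase, -1.20. Without M3 the median of the list was -0.34.

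Genes of NAD synthesis and sirtuins had a median of -0.09 over 20 tested genes, and 4 had an unadjusted p below 0.05, all negative. The median was -0.17 without M3 and 0.025 without M15. Nampt, the rate-limiting enzyme of NAD salvage, had 1706, 1771 and 1605 normalized counts in LbNOX_EtOH, against 2733, 2668, 2113, 2770 and 2169 in Luc_H2O. It lay below every control, with a log2 fold change of -0.55 (limma, adjusted p = 0.057), and Luc_EtOH was as low at 1693 ± 206 (SD, n = 3). Qprt and Nmnat1, further enzymes of NAD synthesis, had -0.34 and -0.42. Of the 14 genes of the NADH shuttles, which carry electrons into mitochondria, 11 were above 0, with a median of 0.12. Got1, the cytosolic transaminase of the malate-aspartate shuttle, had 4168, 4108 and 4499 normalized counts in LbNOX_EtOH, against 2420, 2937, 1407, 1756 and 3403 in Luc_H2O, without overlap (log2 fold change 0.91, limma, adjusted p = 0.12). Mdh2, of the same shuttle, had 0.36. This list's median was -0.014 without M3.

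Clock genes had members on both sides, none called. Npas2, a partner of BMAL1, had 44.3, 23.6 and 49.6 normalized counts in LbNOX_EtOH, against 3.00, 3.64, 9.97, 14.1 and 5.00 in Luc_H2O, without overlap (log2 fold change 2.43 ± 0.64 SE, limma, adjusted p = 0.086). Dbp, a clock output factor, had 163, 504 and 162 normalized counts in LbNOX_EtOH, against 479, 726, 493, 556 and 1125 in Luc_H2O, where M14 lay among the controls (-1.43). Nr1d2, which encodes the repressor REV-ERB beta, had -0.48. The hour of day at which each liver was taken is not given in the sources used here.

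Drug-metabolizing and stress genes had single members that did not overlap with control, none of them called. Of 19 xenobiotic genes, 5 had an unadjusted p below 0.05 with a positive fold, among them Cyp2c55 and Cyp3a11, cytochromes P450, with 0.88 and 0.44, and Sult1d1, a sulfotransferase, with 0.59. That list's median was 0.15, but -0.14 without M3. Sult1e1, the estrogen sulfotransferase, from the glucocorticoid list, had 210, 329 and 392 normalized counts in LbNOX_EtOH, against 155, 106, 75.6, 29.3 and 77.0 in Luc_H2O (log2 fold change 1.94, limma, adjusted p = 0.088). Zbtb16, a glucocorticoid-induced zinc finger factor, had 0.99 and Cdkn1a, the cyclin-dependent kinase inhibitor p21, 0.70. In the list of the integrated stress response, whose median was 0.05 (0.15 without M3), Vldlr, a lipoprotein receptor, had 248, 176 and 225 normalized counts in LbNOX_EtOH, against 93.5, 56.3, 65.7, 102 and 64.0 in Luc_H2O, without overlap (1.51, limma, adjusted p = 0.057). Atf5, a stress transcription factor, had -0.76, and Gdf15, a stress hormone of the liver, 0.56 (0.13 to 0.99, adjusted p = 0.22). Outside these lists, Ppp1r3c, a glycogen-targeting subunit of protein phosphatase 1, had 0.81 (limma, adjusted p = 0.11).

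Lists of hepatocyte energy metabolism were close to control. All 22 genes of oxidative phosphorylation had an interval within 2-fold, with a median of -0.04. So had 14 of 16 genes of glycolysis (median 0.03), 17 of 22 of amino acid catabolism and the urea cycle (0.06) and 16 of 20 of the NRF2 and glutathione list (-0.08). Without M3 the medians were -0.16 for oxidative phosphorylation, -0.048 for glycolysis and -0.11 for amino acid catabolism. No gene of these lists was called. Between Luc_EtOH and Luc_H2O livers, for scale, the medians in the order first named were 0.03, 0.16, 0.30 and -0.46.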

How the data were processed

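RNA-seq of mouse liver was deposited as 1 table of 16330 genes in 15 libraries, and groups were taken from the first header line of the table, which names the group of each column in the terms of the sample labels. The values are normalized counts made by the authors (whole reads divided by a factor per library, unit: signal). Salmon 1.5.1, DESeq2 1.30.1 and mm10 are listed, without their roles, in the submitters' processing notes. All of the 244950 values were whole multiples of a step per library within 0.001, which gave each library's depth. Because deposited values are normalized, limma 3.58.1 (R 4.3.3, intensity trend, robust variances) was run on log2(value + 1) in 1 fit of the 4 groups, over genes with 10 or more in at least 3 libraries, with Benjamini-Hochberg adjustment at 0.05. Fold changes are on that scale. The pseudocount understates changes of low genes, but libraries at 0 can enlarge the fold. Msh3, at 0 in M13 and M15, had a log2 fold change of -4.27 by limma and -1.82 by DESeq2. On the recovered reads edgeR 4.0.16 (quasi-likelihood, TMM) called 53 genes and DESeq2 1.42.0 called 565. Also tried were other filters and pseudocounts, quantile normalization, a fit with no trend, the 2 groups alone and each library left out. Within-group chi-square per degree of freedom was 24.9 to 140 for pairs of libraries, so no pair agreed within sampling noise. No block by replicate could be fitted.

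The genes compared, the 44 lists and the 18 fixed genes were chosen with earlier results of these data known. Genes were named by a rule: of those called whose mean was at least 50, the 15 largest rises and falls and the 5 smallest p-values, up to 3 members of smallest p per list, and the fixed genes. All other called genes, and Igtp and Irgm1, were named after their values were seen. Positions are GRCm38 from GENCODE vM21, and promoters are from RefSeq (GRCm38.p6). The model was tested on simulated data.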

Additional observations from a re-analysis of the deposited data

Results flagged for a closer look

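Of 123 genes and 44 lists examined in the Luc_H2O group, 11 genes and 6 lists had 1 library far from the other 4, and chance flags about 1 in 20 groups. Library M4 was high for Irf7 (4042 normalized counts, others 934 to 1543), Ifit3 (3157, others 558 to 750), Ifit1 (3081, others 376 to 587), Azi2 (1093, others 824 to 863), Ppp1r3c (902, others 340 to 485) and Pnpla3 (12.9, others 4.00 to 6.36). It was low for Cdc20 (494, others 999 to 1141) and Alg8 (258, others 336 to 351), and high in the list of B and plasma cell markers (level 2.26, others -0.99 to -0.22). Library M3 was high for Ifi47 (2109, others 1210 to 1389) and S100a9 (59.0, others 19.1 to 28.1) and low for Tmed1 (165, others 239 to 251). Its list level was low for glycolysis (-0.52), NADH shuttles (-0.51) and xenobiotic metabolism (-0.71), and high for liver endothelial markers (0.92). Library M1 was low in the list of insulin signalling (-0.15).

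The ethanol effect in LbNOX livers differed from that in luciferase livers for several named genes, by the interaction term of the same limma fit. This term uses the LbNOX_EtOH and Luc_H2O libraries, which also picked the genes apart from control. The fixed genes and lists were chosen with earlier results of these data known. The adjusted p-values are therefore not independent tests, and the share of all genes that passed was not counted. The difference of the log2 effects, LbNOX minus luciferase, was -3.87 for Ttc25 (adjusted p = 0.0010), -3.74 for G6pc (0.013), -3.12 for Pnpla3 (0.037), -2.69 for Acly (0.0020), -2.23 for Fgf21 (0.038), -1.95 for Elovl6 (0.023) and -1.69 for Arrdc4 (0.042). It was 2.49 for Cyp7a1 (0.016) and 2.82 for Cxcl10 (0.028). Among genes apart from control it was 1.54 for Ifi47 (0.030), 1.23 for Itih5 (0.037), 0.96 for Dscr3 (0.024), -0.69 for Opa3 (0.039) and -0.93 for Tarsl2 (0.039). For the immunity-related GTPases Iigp1 and Irgm1 it was 1.64 (0.0085) and 1.56 (0.017). The value of Pnpla3 is uncertain, since its Luc_H2O counts were near the floor.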

How the results depend on the processing

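No paired analysis was possible because the columns of the table carry no replicate numbers. The count of 59 called genes (19 higher, 40 lower) moved to 90 (31 higher) with quantile normalization, 19 (10 higher, 9 lower) without trend and robust variances, 35 (21 lower) without a filter and 106 (40 higher, 66 lower) with a minimum of 50. It was 0 (0 higher, 0 lower) with the 2 groups alone, 180 (96 higher, 84 lower) without M3 and M8 and 565 (265 higher, 300 lower) with DESeq2. With 1 library left out it ranged from 0 to 94, with 0 to 29 higher and 0 to 65 lower. None of the 59 reversed under these alternatives; with a minimum of 50, 58 of them were tested. The difference in distance ranged from -0.0246 to 0.0471, and was negative without M15, M1 or M2. Some uncalled values near 0 changed sign. With 1 library left out Aldh2 ranged from -0.0981 to 0.131, Cyp2e1 from -0.314 to 0.301, Acss2 from -0.0993 to 0.168, Gpd1 from -0.0265 to 0.318, Pklr from -0.397 to 0.152, Acly from -0.0608 to 0.326, Fasn from -0.26 to 0.53 and Txnip from -0.294 to 0.0652. Without M3 and M8, Aldh2 had -0.0981, Cyp2e1 -0.314, Acss2 -0.0544, Gpd1 -0.0265 and Fasn -0.132. edgeR gave -0.118 for Cyp2e1, and DESeq2 gave -0.122 for Cyp2e1 and -0.000513 for Aldh2. The cause of these shifts was not tested. With 3 and 5 libraries, small changes of low genes are not detectable.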

Other observations

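Genes of the unfolded protein response lay slightly below control in LbNOX_EtOH livers, as in the other groups. Of 17 tested, 16 had a negative log2 fold change, with a median of -0.20 (-0.078 without M14). An unadjusted p below 0.05 with a negative fold was reached by 4, against 7.11% of all genes. None was called, and all 17 had an interval within 2-fold. Against the same Luc_H2O libraries the median was -0.26 in Luc_EtOH and -0.21 in LbNOX_H2O. All 30 tested ribosomal protein genes had a negative log2 fold change, with a median of -0.24 and a range of -0.38 to -0.08. None was called. Their list level was -0.14, -0.23 and -0.34 in M13 to M15, against -0.02, -0.03, -0.20, -0.02 and 0.35 in M1 to M5. The control M3 thus lay below M13. With 1 library left out the median ranged from -0.31 to -0.19. Of 20 tested aminoacyl-tRNA synthetase genes, 16 were below 0, with a median of -0.14, and Tarsl2 was the called member. Of 16 tested immediate early genes, which respond to signals within minutes, 13 were above 0, with a median of 0.29 (0.18 without M13), and 4 had an unadjusted p below 0.05. Their list level was 0.67, 0.05 and 0.25 in M13 to M15, against -0.01, -0.06, 0.52, -0.24 and -0.27 in M1 to M5, where M3 overlapped with LbNOX_EtOH.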
